A study of Homo sapiens with 10 samples.

Results

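The genes described are DDIT4, the 3 sestrins SESN1, SESN2 and SESN3, and 6 genes that encode the core of the mTORC1 kinase module and its nearest regulators, namely TSC1, TSC2, RHEB, DEPTOR, MTOR and RPTOR. They were taken by gene symbol from a table of RNA-seq counts, and 10 of 10 were found among its 28380 genes. RPE-1, an immortalized line of human retinal pigment epithelial cells, was treated for 4 h with 25 µM sulforaphane (SFN), an isothiocyanate from cruciferous vegetables, or with its vehicle DMSO, and 5 libraries were sequenced per group. All 10 libraries thus came from the same line without any genetic change between groups, and the only labelled difference was SFN against DMSO. The study's methods give a number of cells for each replicate and say in general that its data rest on 3 or more independent replicates. Neither they nor the labels say whether the RNA-seq replicates were separate cultures or days. The p-values thus measure the spread between these libraries, which may be technical.

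mTORC1 is a protein kinase complex at the lysosome that promotes cell growth and protein synthesis and holds back autophagy when nutrients and growth factors are available. The small GTPase RHEB activates its kinase subunit MTOR, RPTOR brings substrates to it, and DEPTOR inhibits it. TSC1 and TSC2 form the complex that switches RHEB off. DDIT4 (also called REDD1) acts upstream of that complex, while the sestrins act on the GATOR complexes that relay amino acid supply, and both are known as genes that stress induces to restrain mTORC1. Transcript levels, which are what was measured here, do not report the activity of these proteins.

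The libraries held 15689294 to 20666692 counts in the DMSO group and 12375860 to 17308706 in the SFN group. DMSO replicate 1 stood apart from the other DMSO libraries, with a mean Spearman correlation across genes of 0.935 to them against 0.979 to 0.982 for each of the others. Its values depended on transcript length: relative to the other DMSO libraries its median log2 difference was 0.68 over 3739 genes with canonical transcripts under 2000 bases and -0.61 over 3440 genes above 5000 bases. The member results are therefore given with and without it. As a check of the cell line, the epithelial and mesenchymal markers KRT8, KRT18 and VIM had at least 2396 counts in every library, and the immune marker PTPRC and the endothelial marker PECAM1 had at most 9. The label of pigment epithelium was borne out only in part: MITF, OTX2 and BEST1 had 97 counts or more in every library, PMEL had 7 to 29, and RPE65, RLBP1 and TYRP1, which define mature pigment epithelium, had at most 4. Of the 8 pigment epithelium markers 7 were measured, and their summed level was 66.5 to 98.9 CPM, without TMM scaling, in DMSO libraries and 54.2 to 128 CPM in SFN libraries. MITF had 758 to 1210 counts in DMSO and 217 to 401 in SFN libraries and OTX2 had 216 to 299 and 107 to 157, while BEST1 ranged from 97 to 672 in DMSO and from 275 to 1244 in SFN libraries, and the part of these markers in the results was not tested.

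After SFN, 3 of the 10 genes rose (DDIT4, SESN2 and RHEB), 1 fell (SESN1) and 6 did not pass the test, at an adjusted p under 0.05 in the quasi-likelihood test of edgeR, adjusted by Benjamini-Hochberg across the 13378 genes tested. All 10 passed the filter on low counts. Over all genes tested, 9.07% were called increased and 13.9% decreased, so the count of 3 increased was above the background share and the count of 1 decreased was close to it. DDIT4 and SESN2 were the members that changed most, by 24.6-fold and 11.6-fold. The responses of RHEB and SESN1 stayed under 2-fold, and the point estimates of TSC2, MTOR and SESN3 were within 0.04 of 0 on the log2 scale. Levels are given as CPM, a gene's share of the TMM-scaled counts of its library, so they cannot show a change in the total RNA of the cells.

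**Figure D1:**
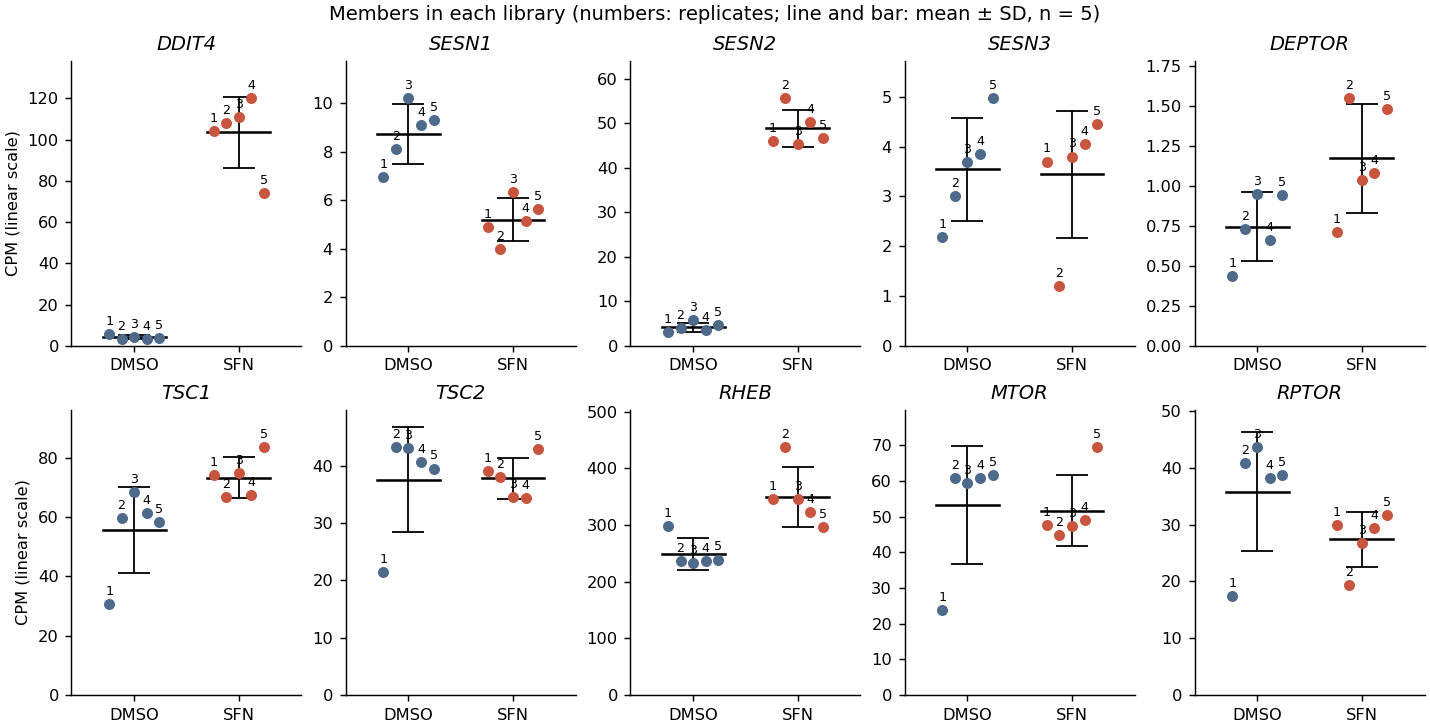
CPM (linear axes from 0) of the 10 genes in each DMSO (blue) and SFN (red) library, with the replicate number at each point and the mean ± SD over n = 5 in black. DDIT4 and SESN2 are far above DMSO in every SFN library, SESN1 is below it in every SFN library, and DMSO replicate 1 is the low point of TSC1, TSC2, MTOR and RPTOR and the high DMSO point of RHEB.

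DDIT4 (ENSG00000168209, chr10:72273919-72276036 on the plus strand of GRCh38, GENCODE 44) encodes the stress-induced protein that frees the TSC complex to act on RHEB. In DMSO replicates 1 to 5 it measured 5.67, 3.51, 4.30, 3.55 and 3.97 CPM, from 59 to 91 counts. In SFN replicates 1 to 5 it measured 104, 108, 111, 120 and 74.1 CPM, from 1049 to 1785 counts. The lowest SFN library, replicate 5, was thus far above the highest DMSO library, replicate 1. The mean went from 4.2 ± 0.882 to 103 ± 17.5 CPM (SD, n = 5), a log2 fold change of 4.62 (SE 0.19, 95% interval 4.21 to 5.03, adjusted p = 3.4e-08). That placed DDIT4 as number 17 of the 13378 genes by size of increase. Without DMSO replicate 1 the log2 fold change was 4.75.

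SESN2 (ENSG00000130766, chr1:28259518-28282491, plus strand) encodes a sestrin that binds leucine and, without it, holds GATOR2 back. Its DMSO libraries 1 to 5 measured 3.05, 3.92, 5.70, 3.49 and 4.74 CPM, from 49 to 102 counts. Its SFN libraries measured 46.1, 55.6, 45.4, 50.3 and 46.7 CPM, from 610 to 773 counts. The groups lay far apart, and the SFN libraries varied less relative to their mean (coefficient of variation 8.64%) than the DMSO libraries (25.2%). The mean went from 4.18 ± 1.05 to 48.8 ± 4.22 CPM, a log2 fold change of 3.54 (SE 0.17, 95% interval 3.17 to 3.92, adjusted p = 1.9e-07). It ranked as number 40 of all genes tested by increase, and without DMSO replicate 1 its log2 fold change was 3.44.

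The promoters of these 2 genes are shown because they are the pair of members with the largest increase. Both hold the same short element, which some other members also held. The sequences are RefSeq's for GRCh38.p14, from 250 bases before to 50 bases after the annotated start, at chr10:72273674-72273973 and chr1:28259268-28259567, both on the plus strand and written 5′ to 3′. Capitals mark CCAAT boxes, which here read ATTGG because they lie on the other strand, and the hypoxia response element core ACGTG.
DDIT4: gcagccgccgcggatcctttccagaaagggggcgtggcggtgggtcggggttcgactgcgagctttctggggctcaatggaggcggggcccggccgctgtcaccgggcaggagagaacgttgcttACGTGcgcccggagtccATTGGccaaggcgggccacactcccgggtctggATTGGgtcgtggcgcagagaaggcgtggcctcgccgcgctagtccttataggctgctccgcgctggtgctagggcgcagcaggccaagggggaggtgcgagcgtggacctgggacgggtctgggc
SESN2: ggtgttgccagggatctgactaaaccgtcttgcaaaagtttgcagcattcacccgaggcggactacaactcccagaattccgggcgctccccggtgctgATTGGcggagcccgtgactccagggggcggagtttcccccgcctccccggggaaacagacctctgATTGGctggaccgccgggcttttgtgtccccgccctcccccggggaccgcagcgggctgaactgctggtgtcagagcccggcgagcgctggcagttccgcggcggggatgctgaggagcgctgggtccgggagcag
The CCAAT boxes of DDIT4 began 108 and 75 bases before the start, and those of SESN2 began 151 and 86 bases before it. A CCAAT box on either strand was found in 34.6% of 35116 RefSeq promoters of this length, and at least 2 of them in 10.8%. It was not particular to this pair, since the MTOR window held 3 and the RHEB window 2. Of the SESN1 promoters, numbers 1 and 2 held 1 each and number 3 held none. The windows of RPTOR, SESN3, TSC1 and TSC2 held none. The ACGTG core stood 125 bases before the DDIT4 start, was not among the letters of the SESN2 window, and occurred in 21.4% of promoters. SESN2 also held 2 GC boxes (GGGCGG), which 45% of promoters held at least once and the DDIT4 window did not. The letters TGATGNAA, the core of the C/EBP-ATF response element to which ATF4 and DDIT3 bind, were in neither window and in 3.62% of promoters. Searches for TGACNNNGC, the core of the antioxidant response element, and GTAAACA, a FOXO site, found no match in either window, and 13.3% and 3.42% of promoters held them. These matches describe letters only and do not show that a factor was bound.

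The other sestrins did not follow SESN2. SESN1 (ENSG00000080546, chr6:108984309-109094846, minus strand), a sestrin known as a target of FOXO factors among others, fell. It measured 6.97, 8.11, 10.2, 9.10 and 9.29 CPM in DMSO replicates 1 to 5 (112 to 182 counts) and 4.89, 3.97, 6.33, 5.13 and 5.65 CPM in SFN replicates 1 to 5 (46 to 85 counts). Every SFN library was under every DMSO library, though the highest SFN library (replicate 3) was close to the lowest DMSO library (replicate 1). Its mean went from 8.73 ± 1.23 to 5.19 ± 0.88 CPM, a log2 fold change of -0.75 (SE 0.16, 95% interval -1.09 to -0.40, adjusted p = 0.0052). Without DMSO replicate 1, which was the lowest of its group, the log2 fold change was -0.82 with an adjusted p of 4.8e-04.

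SESN3 (ENSG00000149212, chr11:95165513-95232541, minus strand), another FOXO target, did not pass the test. The DMSO libraries 1 to 5 held 2.18, 3.01, 3.69, 3.86 and 4.97 CPM and the SFN libraries 3.70, 1.21, 3.80, 4.05 and 4.45 CPM. SFN replicate 2, at 14 counts where the others of its group had 51 to 63, was the lowest of all 10, and the remaining libraries of the groups overlapped. The log2 fold change was -0.03 (SE 0.31, 95% interval -0.72 to 0.65, adjusted p = 0.96), so these libraries do not settle whether there was a difference within that interval.

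Whether the sestrins differed in their response was tested directly, on the log2 ratio of 2 genes' counts within each library, which no scaling factor can change. The ratio of SESN2 to SESN1 ran from -1.37 to -0.83 in DMSO and from 2.84 to 3.79 in SFN, a shift of 4.32 (SE 0.18), or 19.9-fold. The ratio was thus higher in every SFN library than in any DMSO library. The shift of SESN2 against SESN3 was 3.68 (SE 0.42), or 12.8-fold. For each of these pairs an exact two-sided permutation test over 252 arrangements of the libraries gave p = 0.00794, the smallest it can give, and an adjusted p of 0.0159 over 4 pairs. SESN1 against SESN3 shifted by -0.64 (SE 0.29), and that difference did not pass (exact permutation p = 0.0714, adjusted p = 0.0714). SFN replicate 2 bore on it, since its ratio of 1.68 stood above the 0.34 to 0.73 of the other SFN libraries, and without that library the shift was -0.88 with an adjusted p of 0.0212 by the exact permutation test.

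The increase of DDIT4 was larger than that of SESN2 by the same test. The log2 ratio of DDIT4 to SESN2 counts ran from -0.40 to 0.89 in DMSO and from 0.67 to 1.28 in SFN, a shift of 1.05 (SE 0.26) or 2.07-fold, with p = 0.0159 by the exact permutation test and an adjusted p of 0.0212. The groups overlapped only through DMSO replicate 1 at 0.89, since the other DMSO libraries were at 0.02 or less.

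**Figure D2:**
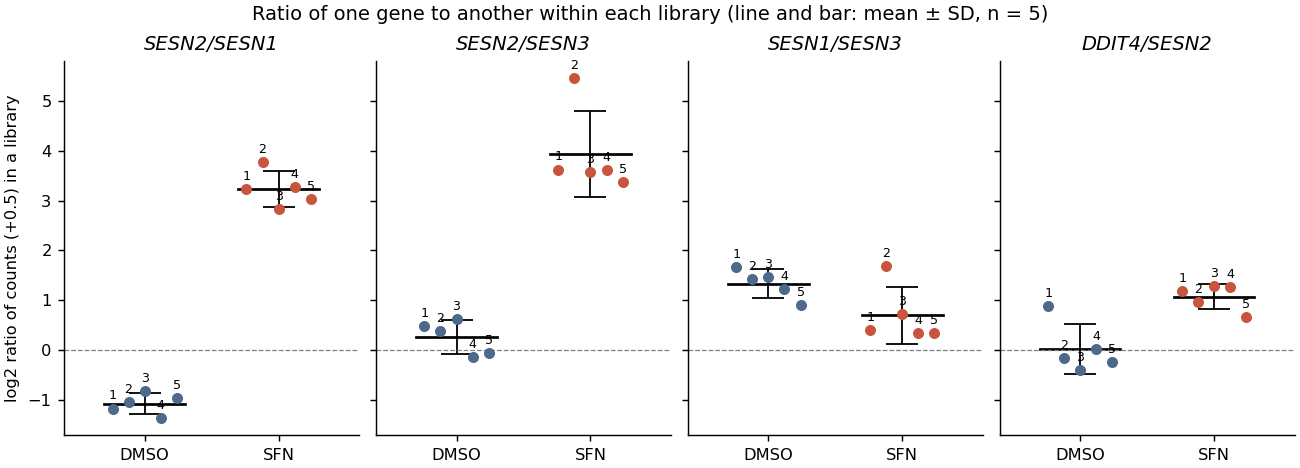
Log2 ratio of 2 genes' counts (each with 0.5 added) within each library, with DMSO in blue, SFN in red, replicate numbers at the points and the mean ± SD over n = 5. The ratio of SESN2 to SESN1 is higher in every SFN library than in any DMSO library, with means 4.32 apart on the log2 scale, while SESN1 against SESN3 overlapped between groups through SFN replicate 2.

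Among the inhibitors and switches around the kinase, RHEB rose and the others did not pass the test with all libraries. RHEB (ENSG00000106615, chr7:151466012-151520120, minus strand), the GTPase that activates MTOR, measured 298, 237, 233, 236 and 239 CPM in DMSO replicates 1 to 5 and 345, 437, 345, 322 and 297 CPM in SFN replicates 1 to 5. The groups overlapped through DMSO replicate 1 and SFN replicate 5, which were nearly level, and the other DMSO libraries lay close together below all SFN libraries. From 249 ± 27.9 CPM the mean went to 349 ± 53.0 CPM, 1.4-fold, with a log2 fold change of 0.49 (SE 0.13, 95% interval 0.21 to 0.77, adjusted p = 0.016). Without DMSO replicate 1 it was 0.56 (adjusted p = 5.1e-04), with no overlap. The transcript of RHEB is among the short ones of this group, 2046 bases, and RHEB was 0.34 higher on the log2 scale in DMSO replicate 1 than in the other DMSO libraries.

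TSC1 (ENSG00000165699, chr9:132891348-132946874, minus strand), which stabilizes TSC2, measured 30.5, 59.7, 68.4, 61.4 and 58.4 CPM in the DMSO libraries and 74.0, 66.7, 74.8, 67.5 and 83.5 CPM in the SFN libraries. DMSO replicate 1 lay far below the other DMSO libraries, and DMSO replicate 3 overlapped the lower SFN libraries. The log2 fold change was 0.40 (SE 0.19, 95% interval -0.01 to 0.80, adjusted p = 0.15), and without DMSO replicate 1 it was smaller, 0.24, with an adjusted p of 0.046.

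TSC2 (ENSG00000103197, chr16:2047967-2089491, plus strand), the part of the complex that acts on RHEB, measured 21.4, 43.2, 43, 40.6 and 39.5 CPM in the DMSO libraries and 39.1, 38, 34.5, 34.4 and 42.9 CPM in the SFN libraries. Apart from the low DMSO replicate 1 the groups overlapped. Its log2 fold change was 0.01 (SE 0.18, 95% interval -0.38 to 0.40, adjusted p = 0.98), and -0.14 without DMSO replicate 1 (adjusted p = 0.20). TSC2 shares 784 bases with PKD1 on the opposite strand, and since the use of strand in counting is not given in the sources used here, reads from that stretch may belong to either gene. PKD1 itself had a log2 fold change of 0.06 (SE 0.15, adjusted p = 0.82). Annotated genes were sought that overlapped a member on either strand, or lay within 5 kb downstream on the member's own strand. Of the 25 found, 12 were measured, and the 11 of these other than PKD1 had at most 9 counts in any library. The remaining 13, among them GFI1B opposite TSC1, DEPTOR-AS1 opposite DEPTOR and ANGPTL7 opposite MTOR, were not analysed here.

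DEPTOR (ENSG00000155792, chr8:119873717-120050918, plus strand), the inhibitor bound to MTOR, was the member with the fewest counts, 7 to 17 in DMSO and 12 to 21 in SFN libraries. In CPM the DMSO libraries 1 to 5 were at 0.436, 0.729, 0.95, 0.663 and 0.947 and the SFN libraries at 0.715, 1.55, 1.04, 1.08 and 1.48. All SFN libraries but replicate 1 were above all DMSO libraries. The log2 fold change of 0.64 (SE 0.30, 95% interval -0.03 to 1.30, adjusted p = 0.16) did not pass the test, with 0.49 and an adjusted p of 0.20 without DMSO replicate 1.

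MTOR (ENSG00000198793, chr1:11106535-11262556, minus strand), the kinase, measured 23.8, 60.8, 59.4, 60.7 and 61.6 CPM in DMSO replicates 1 to 5 and 47.6, 44.9, 47.4, 49.1 and 69.4 CPM in SFN replicates 1 to 5. In each group a single library lay far off, DMSO replicate 1 below and SFN replicate 5 above, and the other 4 libraries of each group did not overlap, with DMSO the higher. Its log2 fold change was -0.04 (SE 0.24, 95% interval -0.56 to 0.47, adjusted p = 0.92) with all libraries and -0.24 (adjusted p = 0.11) without DMSO replicate 1. RPTOR (ENSG00000141564, chr17:80544819-80966371, plus strand), the scaffold that defines mTORC1, measured 17.5, 40.8, 43.6, 38.2 and 38.8 CPM in DMSO and 29.9, 19.3, 26.7, 29.4 and 31.7 CPM in SFN libraries. DMSO replicate 1 was the lowest of the 10, and the other DMSO libraries were all above the SFN libraries. RPTOR had a log2 fold change of -0.38 (SE 0.23, 95% interval -0.88 to 0.11, adjusted p = 0.26) with all libraries, and -0.56 (adjusted p = 0.0027) without DMSO replicate 1.

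**Figure D3:**
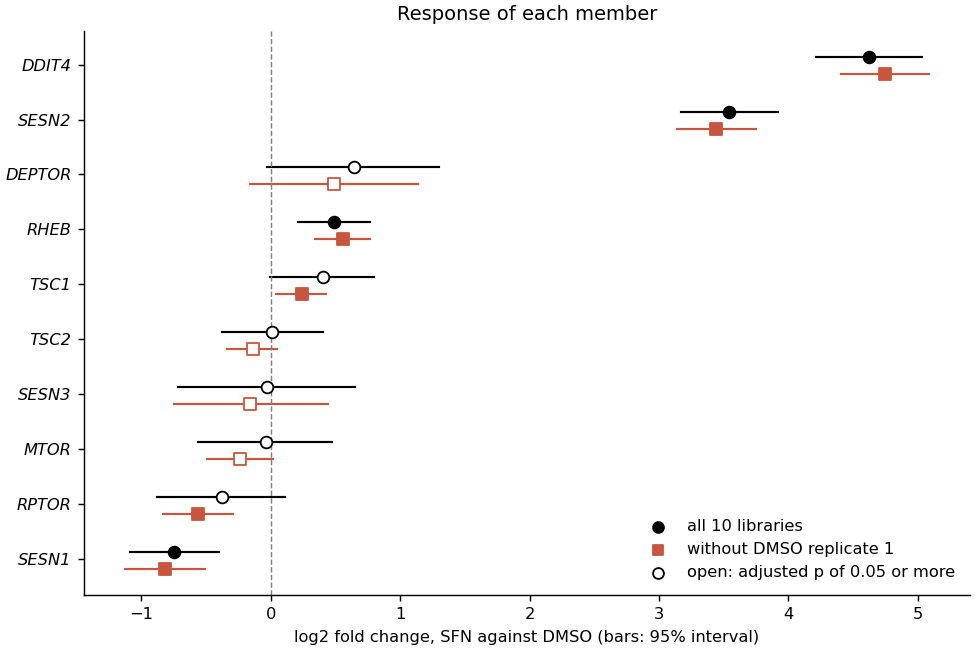
Log2 fold change of each gene, SFN against DMSO, with its 95% interval, from all 10 libraries (black circles) and without DMSO replicate 1 (red squares), filled where the adjusted p was under 0.05. DDIT4 (4.62) and SESN2 (3.54) stand far to the right in both fits, and TSC1 and RPTOR pass the threshold only without that library.

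Without DMSO replicate 1, 4 of the 10 genes were called increased (with TSC1 added) and 2 decreased (with RPTOR added), against 22.5% and 23.5% of 13566 genes. Counted by libraries rather than by the model, DDIT4 and SESN2 lay above and SESN1 below all DMSO libraries, while 7 members overlapped. Of all genes tested, 8.78% had every SFN library above every DMSO library and 11.1% had every SFN library below.

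The place of DMSO replicate 1 among the members differed by transcript length, though not in strict order. On the log2 scale it was above the mean of the other DMSO libraries for DDIT4 (by 0.55) and RHEB (by 0.34), with canonical transcripts of 1744 and 2046 bases. It was below them for the other 8 members, by -0.38 for SESN1 (5664 bases), -0.51 for SESN2 (3462), -0.74 for DEPTOR (2569) and -0.78 for SESN3. The largest distances were -0.96 for TSC2, -1.02 for TSC1, -1.20 for RPTOR and -1.35 for MTOR, with canonical transcripts of 6415 to 8721 bases, while SESN3 at 9563 bases was the longest of all. The part of this library in the member results was not tested beyond leaving it out.

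**Figure D4:**
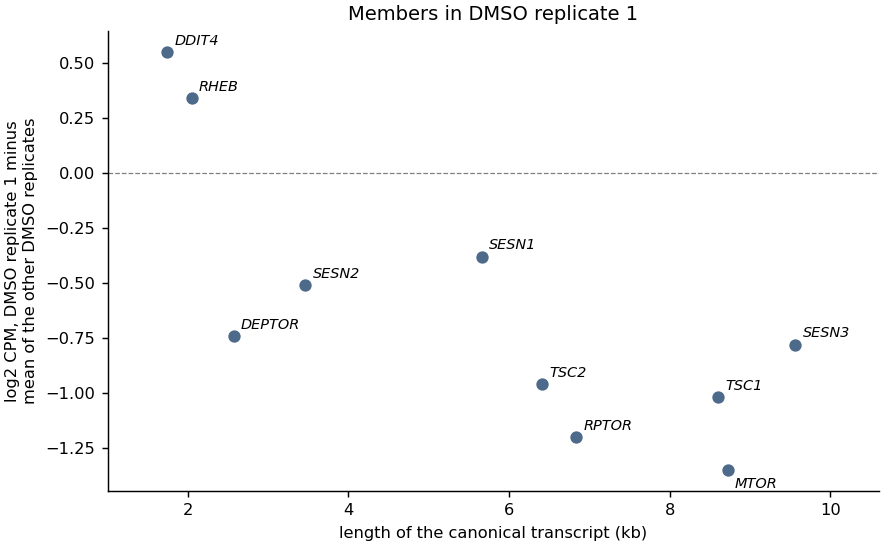
Log2 CPM of DMSO replicate 1 minus the mean of the other DMSO replicates, against the length of the canonical transcript in kb, for each of the 10 genes. The 2 shortest, DDIT4 and RHEB, lie above 0 and the other 8 below, down to -1.35 for MTOR.

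Other genes of the pathway, in 5 lists that were chosen with earlier results of these data known, moved in both directions. Among 10 partners of the mTOR complexes and of TSC, 9 were tested, 2 rose (22.2%, against 9.07% of all genes) and 2 fell (22.2%, against 13.9%), with a median log2 fold change of 0.03 against -0.03 over all genes tested. AKT1S1 (PRAS40), an inhibitor that binds RPTOR, went from 37.8 ± 6.54 to 78.6 ± 0.884 CPM (log2 fold change 1.06, SE 0.13, adjusted p = 1.1e-04), and MAPKAP1 (SIN1), a subunit of mTORC2, rose by 0.42 (SE 0.11, adjusted p = 0.015), a call lost in 3 of the 16 alternatives. PRR5L, a protein of mTORC2, went from 25.9 ± 2.11 to 7.66 ± 1.52 CPM (-1.75, SE 0.15, adjusted p = 9.7e-06). DDIT4L (REDD2), the paralog of DDIT4, went the opposite way to DDIT4, from 34 to 74 counts in DMSO libraries to 1 to 18 in SFN libraries (-2.11, SE 0.41, adjusted p = 0.0032). MLST8, a subunit of both complexes, and RICTOR, the scaffold of mTORC2, had log2 fold changes of 0.09 and 0.03 (adjusted p = 0.83 and 0.93).

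Of 30 genes of amino acid sensing at the lysosome, where sestrins act, 28 were tested, 3 rose and 4 fell, and their median was 0.05. These shares of 10.7% and 14.3% were near those over all genes, 9.07% and 13.9%, so the counts are no result about the list. BMT2 (SAMTOR), the sensor of S-adenosylmethionine, rose from 14.2 ± 2.83 to 41.7 ± 8.87 CPM (log2 fold change 1.55, SE 0.19, adjusted p = 1.4e-04). LAMTOR3, a part of the Ragulator scaffold, rose by 0.70 (adjusted p = 9.1e-04) and FLCN, which acts on the Rag GTPases, by 0.49 (adjusted p = 0.0091). The 4 that fell were DEPDC5 of GATOR1 (-1.15, adjusted p = 0.0027), MIOS (-0.67, adjusted p = 0.0054) and WDR24 (-0.89, adjusted p = 0.017, lost in 1 of the 16 alternatives) of GATOR2, and ITFG2 of KICSTOR (-0.65, adjusted p = 0.0028). GATOR1 restrains and GATOR2 favours mTORC1, so the genes that fell encode parts of complexes that act in opposite directions.

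The growth factor and energy input to TSC held 20 genes, of which 19 were tested, 2 rose and 6 fell, with a median of -0.04. The increased share of 10.5% was near the 9.07% of all genes, and the decreased share was 31.6% against 13.9%. Of the subunits of AMPK, the kinase that senses low energy, PRKAG1 (log2 fold change 0.36, adjusted p = 0.017) and PRKAB1 (0.48, adjusted p = 0.042) rose, while PRKAB2 (-0.92, adjusted p = 3.9e-04), PRKAA2 (-0.67, adjusted p = 0.0039) and PRKAA1 (-0.43, adjusted p = 0.026) fell. IRS1, the adaptor of the insulin receptor, fell by 1.47 on the log2 scale (SE 0.19, adjusted p = 1.8e-04), PIK3R1, a regulatory subunit of PI3K, by 1.14 (adjusted p = 0.0026), and the insulin receptor gene INSR by 0.39 (adjusted p = 0.024). Of the 16 alternatives, 5 ended the call of PRKAG1, 11 that of PRKAB1, 6 that of PRKAA1 and 8 that of INSR.

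All 17 genes listed as mTORC1 outputs, for the proteins they encode, were tested. Of these, 4 rose (23.5%, against 9.07% of all genes) and 2 fell (11.8%, against 13.9%), and the median was 0.25. PDCD4, a repressor of translation, had a log2 fold change of 0.72 (adjusted p = 1.3e-04), TFE3, a regulator of lysosomal genes, 0.69 (adjusted p = 0.0063), ATG13, a part of the kinase complex that starts autophagy, 0.51 (adjusted p = 0.0084) and MAF1, a repressor of RNA polymerase III, 0.42 (adjusted p = 0.025). TFEB, a relative of TFE3, went the other way at -1.73 (adjusted p = 0.0029), from 18 to 43 counts to 5 to 13 counts, and EEF2K, the kinase of elongation factor 2, was at -0.88 (adjusted p = 0.0052). The call of MAF1 was lost in 10 of the 16 alternatives.

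Transcription factors known to act on DDIT4 or sestrin genes formed a list of 11, of which 10 were tested, 3 rose (30%, against 9.07% of all genes) and 2 fell (20%, against 13.9%), with a median of 0.37. DDIT3 (CHOP), a factor of the endoplasmic reticulum stress response, went from 7.57 ± 1.67 to 35.1 ± 7.80 CPM (log2 fold change 2.21, SE 0.19, adjusted p = 1.1e-05). ATF4, the factor of the integrated stress response, went from 236 ± 112 to 668 ± 113 CPM (1.5, SE 0.26, adjusted p = 0.0015), and NFE2L2, the antioxidant factor NRF2, was at 0.69 (adjusted p = 8.9e-04). FOXO1 fell by 1.45 on the log2 scale (adjusted p = 0.011), from only 17 to 32 counts in DMSO libraries to 4 to 11 in SFN libraries. FOXO3 fell by 0.46 (adjusted p = 0.033), and 5 of the 16 alternatives ended its call. The transcript of HIF1A, the hypoxia factor, did not pass the test (0.02, adjusted p = 0.97), and CEBPB was just outside it (0.81, adjusted p = 0.051) but passed it in 7 of the 16 alternatives, among them without DMSO replicate 1 (1.13, adjusted p = 6.6e-05). HIF1A and CEBPB, like MLST8, RICTOR, PRKAA1 and INSR above, were named after their values were seen. How these levels relate to those of DDIT4 and the sestrins was not tested.

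**Figure D5:**
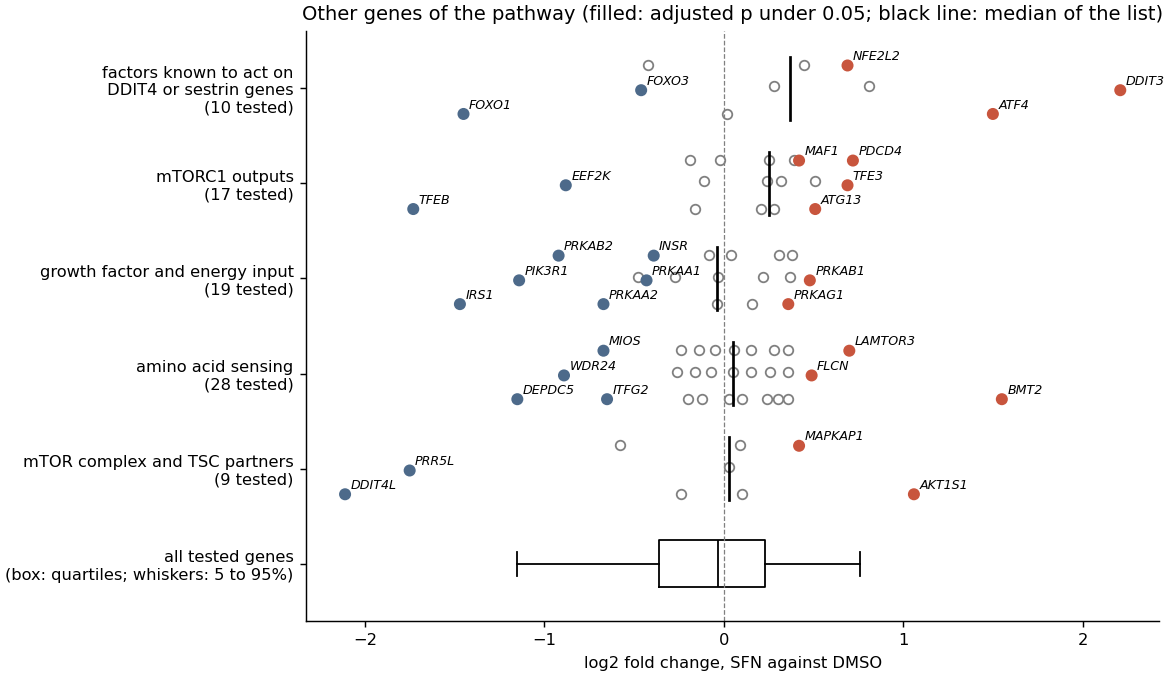
Log2 fold change, SFN against DMSO, of each tested gene in the 5 pathway lists (filled where the adjusted p was under 0.05, red if increased and blue if decreased), with the list's median as a black line and all genes tested as a box at the bottom. Each list holds genes on both sides of 0, and the list medians run from -0.04 to 0.37.

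Leaving out DMSO replicate 1 raised most counts of the lists, as it did for all genes, to 3 increased and 3 decreased among the complex partners, 9 and 4 in amino acid sensing, 4 and 8 in growth factor and energy input, 9 and 4 among the mTORC1 outputs and 4 and 3 among the factors. In that fit 22.5% of the 13566 genes tested were called increased and 23.5% decreased. Beside these shares the counts are not read as a result about any list. The list medians were then -0.10, 0.10, -0.12, 0.31 and 0.20, against 0.00 over all genes.

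Genes with a profile over the 10 libraries like that of DDIT4 were sought among 10038 others with a mean of at least 5 CPM over all libraries. The measure was the root mean square difference of log2 CPM, each profile centred on its own mean. That filter also keeps genes that were low in DMSO and pass through their SFN level. Among those named below, CTH averaged 1.07 CPM in DMSO (11 to 28 counts), EGR1 2.63 and MXD1 4.65 CPM. HSPA1B (0.260), EGR1 (0.379), HSPA1A (0.395), SESN2 (0.633) and CTH (0.685) were nearest, and without DMSO replicate 1 they kept that order. HSPA1A and HSPA1B encode nearly identical inducible HSP70 chaperones, so their separate counts are uncertain, and EGR1 encodes an immediate early transcription factor. The fitted log2 fold changes of these neighbours were 4.34 for HSPA1B, 4.17 for EGR1, 3.84 for HSPA1A and 3.63 for CTH, the enzyme that makes cysteine from cystathionine. For SESN2 the nearest were CTH (0.289), HSPA1A (0.336), MXD1 (0.351), EGR1 (0.419) and TRIB3 (0.487), where MXD1 is a partner of MAX and TRIB3 a pseudokinase induced in stress. DDIT4 was number 12 from SESN2, at 0.633. Without DMSO replicate 1, HERPUD1, an endoplasmic reticulum stress gene, and TRIB3 came nearest to SESN2, both at 0.277. Since every such profile is mainly the difference between 2 groups of libraries, nearness here describes the size of the response and says nothing of shared control.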

How the data were processed

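The 10 genes and the pathway lists were chosen with earlier results of these data known, and 1 gene of the list of transcription factors is not reported here and was left out of its counts and median after they had been seen. The authors deposited raw counts per Ensembl gene for 5 DMSO and 5 SFN libraries, with no normalization, and 0 columns of the table were left out. The study's methods name Lexogen QuantSeq libraries and the Bluebee pipeline, and the submitters' processing notes name FastQC, STAR, featureCounts, edgeR and the builds hg38 and GRCh38 without roles. Strand use, molecular identifiers and the annotation release are not given in the sources used here.

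Genes were kept by filterByExpr (minimum count 10), scaled by TMM and tested SFN against DMSO with glmQLFit and glmQLFTest of edgeR 4.0.16 in R 4.3.3, with Benjamini-Hochberg adjustment and no replicate block. The study's own model, which accounted for repeated measures that its text does not define, was not run. CPM used the TMM-scaled library sizes. Pairs of genes were compared by log2(count + 0.5) within libraries with an exact two-sided permutation test. Alternatives were DESeq2 1.42.0 (test and size factors), limma 3.58.1 with voom and quantile normalization, library size only, no low-count filter, a replicate block, a pseudocount of 2 for the pairs and leaving out each library. The medians of lists, the neighbours and the overlap counts without single libraries were added after seeing the data. Scripts were tested on simulated data. Named genes were the members, up to 4 called genes per list and direction by lowest adjusted p, and the 5 nearest profiles to DDIT4 and to SESN2. Genes that overlap a member on either strand, or start within 5 kb of its 3′ end on its own strand, were also named. GENCODE 44 gave positions and transcript lengths, holding 28145 of the 28380 identifiers. From the RefSeq promoter table, 12 promoters of 9 of the members were searched, and no promoter of DEPTOR, on chromosome 8, was included. The libraries held 12375860 to 20666692 counts. Among the members the standard error of the log2 fold change was largest for SESN3 (0.31) and DEPTOR (0.30). It did not follow counts alone, since MTOR (0.24) and RPTOR (0.23) were above SESN2 (0.17) with more counts.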

Additional observations from a re-analysis of the deposited data

Results flagged for a closer look

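Single libraries stood apart from the other 4 of their group in 8 of the 28 groups of member levels and gene ratios examined, where chance alone gives about 1 in 20. The measure was the gap to the nearest library divided by the range of the group, with a limit of 0.71. DMSO replicate 1 was the library in 5 of the 8, with gap shares of 0.74 for TSC1, 0.83 for TSC2, 0.94 for MTOR and 0.79 for RPTOR, where it was lowest, and 0.91 for RHEB, where it was highest. SFN replicate 5 was highest for MTOR (0.83). SFN replicate 2 was lowest for SESN3 (0.77) and highest for the ratio of SESN2 to SESN3 (0.88), which share the same SESN3 count.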

How the results depend on the processing

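Over 16 alternatives DDIT4, SESN1, SESN2 and RHEB stayed past the threshold with their direction, with log2 fold changes of 4.55 to 4.75, -0.84 to -0.55, 3.44 to 3.68 and 0.39 to 0.56. Leaving out DMSO replicate 1 took the decreased members from 1 to 2 and those below all DMSO libraries from 1 to 2 (range over single libraries left out 1 to 2 for both). Members above all DMSO libraries numbered 2 to 3 over single libraries left out. With fewer libraries a lack of overlap is easier to reach. The share of all genes without overlap is not given here for these fits, so these counts are not read as a result about the members. Over single libraries left out, log2 fold changes ran from -0.16 to 0.18 for SESN3, 0.24 to 0.48 for TSC1, -0.14 to 0.06 for TSC2, -0.24 to 0.01 for MTOR, -0.56 to -0.28 for RPTOR, -0.14 to 0.09 for HIF1A, -0.09 to 0.29 for MLST8, -0.10 to 0.10 for RICTOR and -0.05 to 0.15 for PKD1. The sign turned, with no call, for SESN3 with limma-voom (0.13), TSC2 with library size only (-0.10) and no filter (-0.01), HIF1A with library size only (-0.09) and limma-voom (-0.10), and RICTOR (-0.07) and PKD1 (-0.04) with library size only. The shift of SESN1 against SESN3 ran from -0.88 to -0.55.

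Increased complex partners numbered 1 with library size only, limma-voom or no filter. In amino acid sensing 6 genes were increased with limma-voom and 3 to 9 with single libraries left out. Increased genes of growth factor and energy input numbered 0 with library size only or no filter and 0 to 4 with libraries left out. Among the mTORC1 outputs 3 to 9 were increased and 2 to 4 decreased, and 1 to 3 factors were decreased, with libraries left out. Shares over all genes are given here only for the main fit and the fit without DMSO replicate 1. Counts of list genes in the other fits are thus not read as a result about any list, and the causes were not tested.

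The labels do not say what a shared replicate number means, and deviations of same-numbered libraries correlated at -0.267 to 0.484, so the numbers were not taken as pairs. With the replicate block, MTOR was at 0.01, the increased genes of growth factor and energy input numbered 0, and DDIT4 (4.62) and RHEB (0.48, adjusted p = 0.042) kept their calls, while PRKAG1 (adjusted p = 0.07), PRKAB1 (0.061), MAF1 (0.065) and INSR (0.083) did not pass the test. DEPTOR, at 21 counts or fewer in every library, is limited by depth.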
